A study of Mus musculus with 6 samples.

Results

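The 7 genes described here encode the subunits of the AMPA-type glutamate receptor (Gria1, Gria2, Gria3 and Gria4) and the neuronal pentraxins (Nptx1, Nptx2 and Nptxr). They were taken by name from a table of 31245 genes, all 7 were found, and all 7 were among the 16653 genes that averaged 10 or more normalized counts and were kept. RNA came from 6 primary cultures of mouse cortex, prepared from pups at postnatal day 1 and grown on poly-D-lysine in Neurobasal A with B27 until 12 to 13 days in vitro, when they received either NGPF2 (1.5 ng/ml, 3 cultures) or PBS as vehicle (3 cultures) for 2 h. The series describes 3 vehicle and NGPF2 pairs, each from an experiment of its own, and a pair here joins the cultures that share a replicate number. Strain, sex and genotype are not given in the labels. Each culture is a mixture of cortical cells, so that in these bulk samples fewer cells of a type and less RNA per cell cannot be told apart.

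AMPA receptors are tetramers of the GluA1 to GluA4 proteins, encoded by Gria1 to Gria4, and carry most fast excitatory transmission in the cortex. The subunits present set how the channel behaves: receptors that contain GluA2 pass little calcium, because the GluA2 transcript is edited by the enzyme ADARB1 at a glutamine codon in the pore, the Q/R site. The neuronal pentraxins bind AMPA receptors from outside the cell and cluster them at synapses. NPTX1 and NPTX2 (also called Narp) are secreted, NPTXR is anchored in the membrane, and Nptx2 is an activity-regulated immediate-early gene.

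The 4 subunits share the reading frame around the Q/R site, and the stretch of 45 coding bases is shown because the subunit transcripts differ there by few letters although only GluA2 is edited at this codon to a large extent. The genomic sequence is given 5′ to 3′ on the coding strand (mm10, GENCODE M21 transcripts), with the Q/R codon in capitals.
Gria1: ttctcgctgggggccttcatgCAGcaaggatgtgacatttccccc
Gria2: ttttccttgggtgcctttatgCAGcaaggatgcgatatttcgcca
Gria3: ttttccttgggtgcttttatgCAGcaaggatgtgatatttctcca
Gria4: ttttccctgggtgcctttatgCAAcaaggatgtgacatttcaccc

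These stretches lie at chr11:57243073-57243117 (plus strand) in Gria1, chr3:80706890-80706934 (minus) in Gria2, chrX:41610244-41610288 (plus) in Gria3 and chr9:4464116-4464160 (minus) in Gria4. Over aligned coding bases the 4 subunits were identical at 69.9% to 73.1%. A count per gene measures neither editing at the codon nor the flip and flop splice forms.

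The pentraxins share a signature, shown in capitals for the same purpose, in a stretch of 42 coding bases.
Nptx1: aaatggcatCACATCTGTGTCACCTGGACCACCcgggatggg
Nptx2: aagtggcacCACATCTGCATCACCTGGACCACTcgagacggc
Nptxr: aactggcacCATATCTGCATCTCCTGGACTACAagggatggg

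They lie at chr11:119543287-119543328 (minus), chr5:144555330-144555371 (plus) and chr15:79790371-79790412 (minus), and the pentraxin coding sequences were identical at 66.6% to 68.2% of aligned bases. The whole genes span chr11:57011387-57330244 for Gria1, chr3:80681450-80802835 for Gria2, chrX:41400854-41678601 for Gria3 and chr9:4417896-4796234 for Gria4. The pentraxin genes are far shorter, at chr11:119538719-119547753 for Nptx1, chr5:144545902-144557478 for Nptx2 and chr15:79786351-79804766 for Nptxr. Npcd, on the same strand as Nptxr, shares 17.2% of the exon bases of Nptxr. Its normalized counts of 148 to 267 were small beside those of Nptxr, and how reads in the shared bases were assigned is not given in the sources used here. MicroRNA genes overlap the exons of Gria2, Gria3 and Gria4 over less than 1% of their length.

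The members were counted deeply in every culture. Totals ran from 17478070 to 45193691 counts per culture, and the lowest count of a member in any culture was 1782, for Gria4. The library names of replicates 2 and 3, in both groups, carry a common stem that is missing from replicate 1, and the cultures differed along that line in many genes, so each comparison is given per pair as well as over all 3. The marker genes of the labelled cell type were present: the 10 neuron markers summed to between 203012 and 276856 normalized counts in every culture. Astrocyte markers (10 genes) summed to 22372 and 25914 in vehicle 1 and NGPF2 1, to between 54956 and 61346 in vehicle 2 and 3, but only to between 14300 and 17407 for NGPF2 2 and 3. No listed marker of the 9 cell types was at 0 in every culture, but neither was any other of the 31245 genes. This therefore does not show that a cell type was present. The markers P2ry12, Tmem119, Gpr17, Cldn5, Cdh5 and Tek averaged under 10 normalized counts. Nothing in the labels says whether cultures of a group came from separate litters, and the p-values measure the spread between these cultures.

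The levels differed widely among the members. On a scale of normalized count (count over the library's size factor) per kilobase of exon sequence, averaged over the 6 cultures, Nptxr stood highest at 6646 ± 1754 (SD, n = 6), above Nptx2 at 3725 ± 2465 in 6 of 6 cultures. Gria1 followed at 2623 ± 844, and Nptx2 was above it in 4 of 6 cultures. Nptx1 at 1102 ± 460 was below Gria1 in 6 of 6 cultures and above Gria2, at 887 ± 157, in 4 of 6. Gria4 at 523 ± 97.7 and Gria3 at 500 ± 270 came last, and Gria4 was above Gria3 in 2 of 6 cultures only. The neighbours Nptx2 and Gria1, Nptx1 and Gria2, and Gria4 and Gria3 thus changed places between cultures. In each culture Nptxr was higher per kilobase than 98.9% to 99.4% of the genes kept, and Gria1 than 95.5% to 98.4%. The range was wide for Nptx2, at 89.1% to 99.0%, and for Gria3, at 56.1% to 86.5%. Exon length matters for this order, since the exons of Gria2 sum to 15548 bases over all annotated transcripts but to 10371 in its longest coding transcript. With the length of the longest coding transcript, the mean of Gria2 passed that of Nptx1 (1330 against 1102), and Gria2 was above it in 4 of 6 cultures. The mean of Gria3 passed that of Gria4 (950 against 606), but Gria3 was above Gria4 in the same 4 of 6 cultures with either length.

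**Figure D1:**
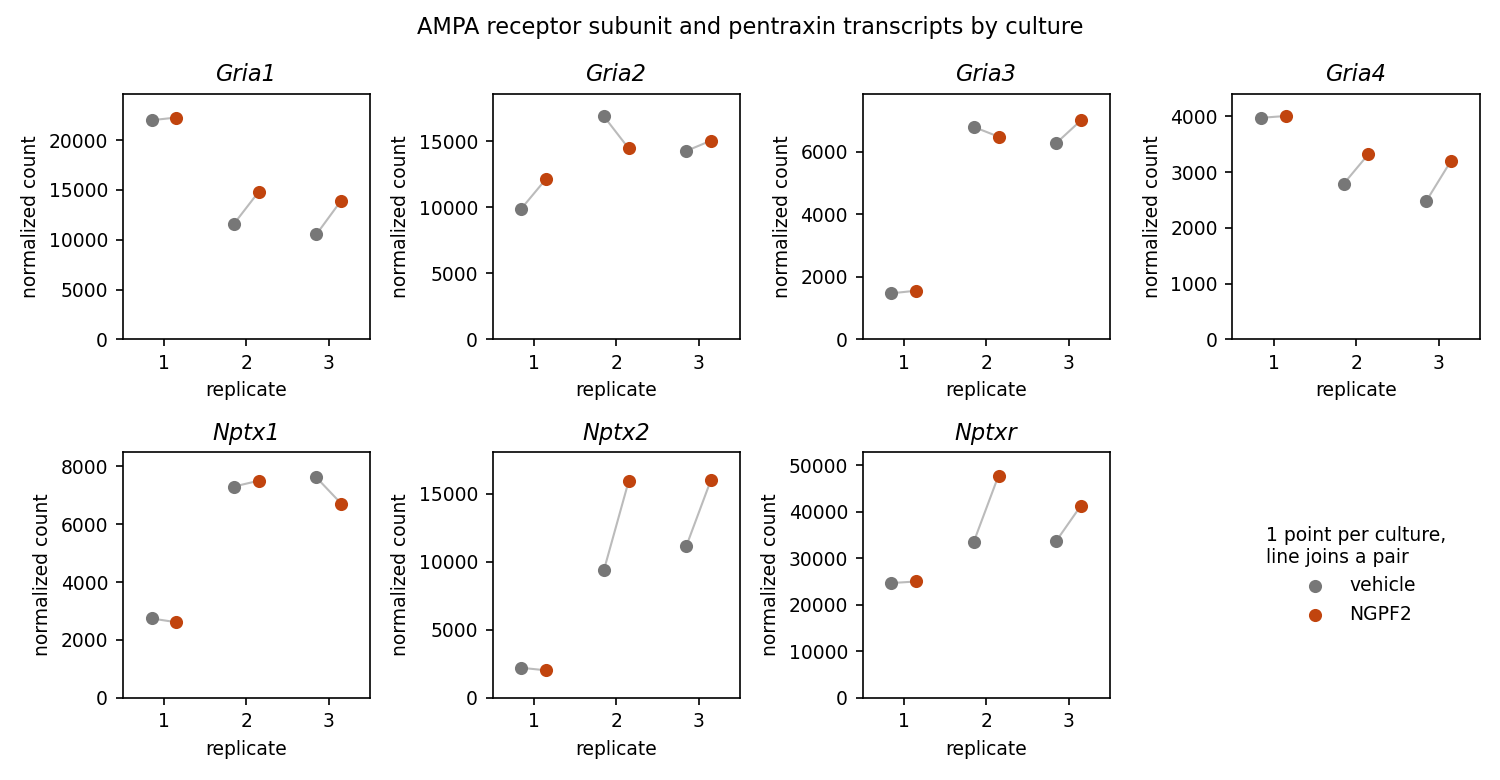
Normalized counts of the 7 genes in each culture (linear vertical axes from 0, a separate scale per gene; horizontal axis, replicate number). Each point is 1 culture, grey for vehicle and red for NGPF2, and a line joins a pair: Gria3, Nptx1 and Nptx2 sit low and Gria1 and Gria4 high in both cultures of replicate 1.

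For each of the 7 genes, the log2 difference between replicates 2 and 3 and replicate 1 was larger in size than that between NGPF2 and vehicle in any of the 3 pairs. Gria3 counted 1473 normalized counts in vehicle 1 and 1557 in NGPF2 1, against 6798 and 6278 in vehicle 2 and 3, with 6486 and 7008 for NGPF2 2 and 3. Both cultures of replicate 1 were far below the other 4. Gria3 was 4.38-fold higher in replicates 2 and 3 (log2 difference 2.13, SE 0.08, limma with the group as a term, adjusted p = 0.00017). This fit counts the 2 cultures of an experiment as separate. Its SE and p-values, for Gria3 and for the other members below, therefore do not measure the spread between experiments.

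Nptx2 counted 2207 and 2020 normalized counts in vehicle 1 and NGPF2 1. The vehicle cultures of replicates 2 and 3 counted 9376 and 11147, and their NGPF2 cultures 15902 and 16025. All 4 of these cultures were above both cultures of replicate 1, and the difference was 6.05-fold (log2 2.60, SE 0.18, limma, adjusted p = 0.000605). Nptx1 moved with it, from 2743 and 2612 in replicate 1 to 7300 and 7614 (vehicle 2 and 3) and 7501 and 6714 (NGPF2 2 and 3), without overlap. The difference was 2.72-fold (limma, adjusted p = 0.000347). Nptxr, which anchors pentraxin complexes in the membrane, showed a smaller difference of 1.56-fold in the same direction (limma, adjusted p = 0.0115).

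Gria1 and Gria4 went the other way. Gria1 counted 21996 and 22262 normalized counts in vehicle 1 and NGPF2 1, 11590 and 10533 in vehicle 2 and 3, with 14804 and 13918 for NGPF2 2 and 3. It was thus lower in all 4 cultures of replicates 2 and 3, by 1.76-fold (log2 difference -0.81, SE 0.11, limma, adjusted p = 0.0039). Gria4, the subunit typical of parvalbumin interneurons, counted 3974 and 4006 in replicate 1, 2791 and 2477 in vehicle 2 and 3, with 3322 and 3198 for NGPF2 2 and 3. Again no culture of replicates 2 and 3 reached replicate 1, and the level was 1.36-fold lower (limma, adjusted p = 0.0241). Most inhibitory neuron markers moved the same way: 9 of 11 fell and 1 rose in replicates 2 and 3. Their sum was 120427 and 114725 in vehicle 1 and NGPF2 1 against 49744 to 66239 in the other cultures. Pvalb, the marker of parvalbumin interneurons, was not among those that fell, and its counts are given at the end of the report. Other markers moved along the same line: 5 of 7 microglia markers fell (sums 1388 and 1514 in replicate 1 against 49.0 to 547 in the others), as did 5 of 7 fibroblast and mural markers (3120 and 2810 against 165 to 516). The 10 excitatory neuron markers summed to 34378 and 33988 in replicate 1 and to between 85130 and 122692 in the others. This sum went in the direction of Gria3, Nptx1 and Nptx2, but most of the single genes did not. Only 3 of the 10 had a positive log2 difference, the median was -0.16, and 2 rose and 2 fell. The part of these markers in the members' differences was not tested. Gria2 counted 9911 and 12163 in replicate 1 against 14271 to 16895 in replicates 2 and 3, a difference of 1.38-fold (limma, adjusted p = 0.0331).

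All 7 members passed the threshold in this contrast, 5 higher and 2 lower, where 27.5% of all genes kept did (14.0% higher, 13.5% lower). In all 7 the values of replicates 2 and 3 did not overlap those of replicate 1, as for 51.8% of all genes (24.9% higher, 26.9% lower). The size of the difference set Nptx2, Gria3 and Nptx1 apart: their absolute log2 difference was larger than that of 97.6%, 96.2% and 91.3% of the genes kept. Gria4 and Gria2 were near the middle, at 57.0% and 58.6%. Replicate 1 is 1 experiment, represented by 2 cultures, and what differed between it and the others is not given in the labels. When replicate 2 or replicate 3 was left out, Gria3, Nptx1 and Nptx2 passed, while Gria1 (adjusted p = 0.0542 and 0.0957), Gria2, Gria4 and Nptxr did not (limma). Gria2 passed in 4 of 11 alternatives, and missed the threshold also with quantile (adjusted p = 0.199), library total (0.0776) and neuron marker (0.0824) scaling, with no filter on low counts (0.0771) and with no variance trend (0.0849). Gria4 missed it with no filter (0.0517) and with no variance trend (0.0687).

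**Figure D2:**
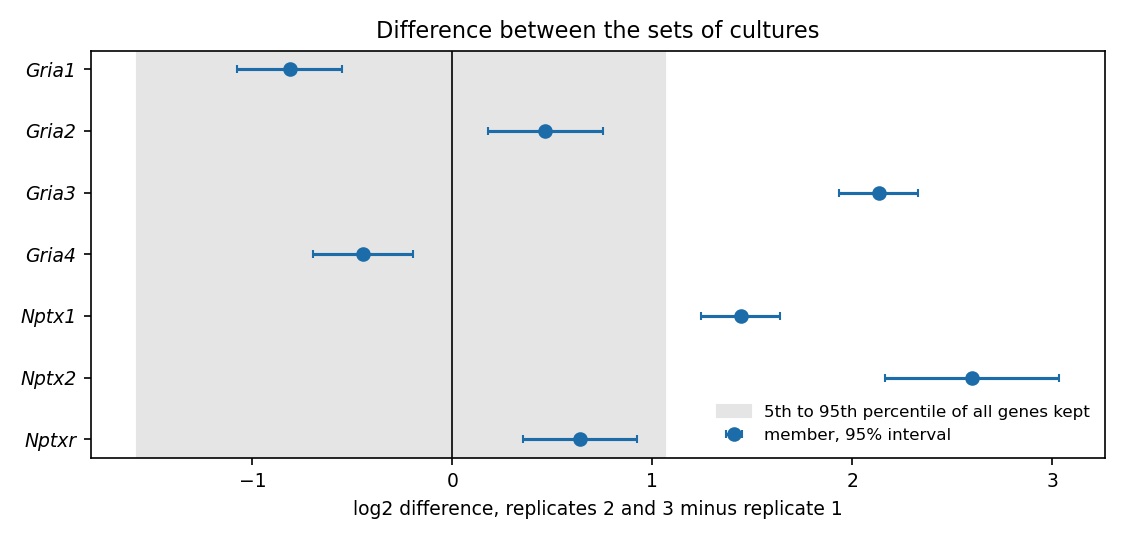
Log2 difference of each gene between replicates 2 and 3 and replicate 1, adjusted for group (points, limma estimate; bars, 95% interval). The grey band spans the 5th to the 95th percentile of all genes kept (-1.58 to 1.06); Gria3, Nptx1 and Nptx2 lie beyond its upper edge, Gria1 and Gria4 below 0.

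The make-up of the subunit pool differed accordingly. Per kilobase of exon sequence, Gria1 made up 72.0% and 70.0% of the summed AMPA subunit transcripts in vehicle 1 and NGPF2 1, 46.4% and 47.2% in vehicle 2 and 3, with 53.7% and 51.3% for NGPF2 2 and 3. Gria2 made up 12.6% and 14.9% in vehicle 1 and NGPF2 1, 26.3% and 24.9% in vehicle 2 and 3, with 20.4% and 21.6% for NGPF2 2 and 3. Gria1 was thus the leading subunit in all 6 cultures on this scale, by the widest margin in replicate 1. The linear ratio of Gria1 to Gria2 was 5.71 and 4.71 in replicate 1, 1.76 and 1.90 in vehicle 2 and 3, with 2.63 and 2.38 for NGPF2 2 and 3. Gria3 held 2.95% and 3.00% of the pool in replicate 1 and 14.4% to 17.3% in the others. The Gria4 share differed least, at 12.1% to 12.5% in replicate 1 and 10.6% to 11.5% in replicates 2 and 3, and its ratio to Gria1 stayed between 0.172 and 0.231.

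These shares depend on the length that is divided out. With the longest coding transcript, the share of Gria1 became 66.8% and 64.5% in vehicle 1 and NGPF2 1, 37.7% and 38.4% in vehicle 2 and 3, with 45.1% and 42.5% for NGPF2 2 and 3. Gria2 became 16.1%, 18.8%, 29.4%, 27.9%, 23.6% and 24.6% in the same order. Gria1 led in all 6 cultures with this length too. With the length of the coding sequence alone, which is nearly the same in the 4 subunits, the order turned in replicates 2 and 3. Gria2 was then above Gria1 in all 4 of those cultures, at 44.8% against 30.0% in vehicle 2, 43.0% against 30.9% in vehicle 3, 37.5% against 37.4% in NGPF2 2 and 38.9% against 35.0% in NGPF2 3. Gria1 led on that scale in replicate 1, at 58.4% and 55.1%. Which of Gria1 and Gria2 led in replicates 2 and 3 thus depends on the length used, while Gria1 had its larger share in replicate 1 with each of the 3 lengths.

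Among the pentraxins, Nptxr held 77.4% and 78.9% of the summed transcripts per kilobase in vehicle 1 and NGPF2 1, and 51.3% to 56.0% in replicates 2 and 3. Nptx2 held 14.1% and 13.0% in replicate 1, 31.9% and 35.5% in vehicle 2 and 3, with 37.0% and 40.5% for NGPF2 2 and 3. The secreted form Nptx2 thus had a larger share, and the membrane form a smaller one, in all 4 cultures of replicates 2 and 3. The sum of the pentraxin transcripts over that of the AMPA subunits was, as a log2 ratio per kilobase, 0.29 and 0.22 in replicate 1, 1.49 and 1.75 in vehicle 2 and 3, and 1.89 and 1.80 in the NGPF2 cultures of replicates 2 and 3. In replicate 1 it became 0.09 and 0.02 with the longest coding transcript and 0.57 and 0.47 with the coding sequence. Without division by length it was -0.33 and -0.43. On each scale it was higher in all 4 cultures of replicates 2 and 3.

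**Figure D3:**
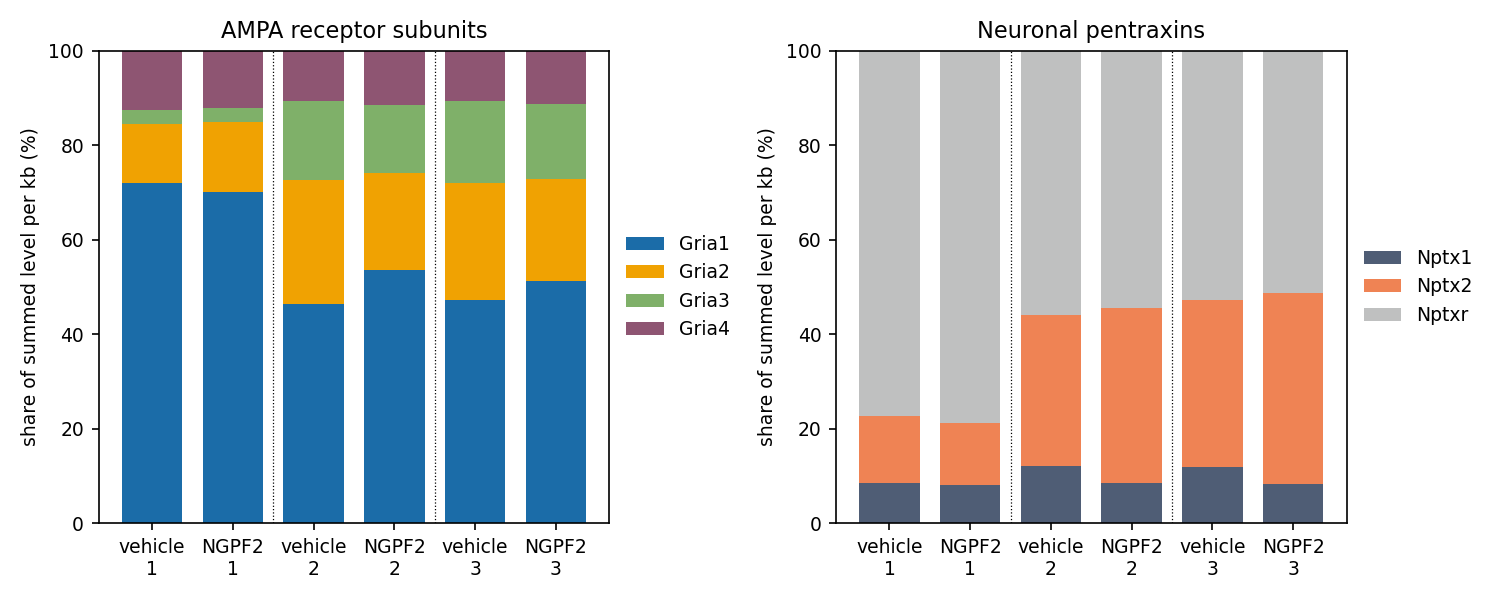
Share (%) of each gene in the summed level per kilobase of the 4 AMPA subunits (left) and of the 3 neuronal pentraxins (right), 1 stacked bar per culture, with dotted lines between pairs. Gria1 holds 72.0% and 70.0% in replicate 1 against 46.4% to 53.7% in the other cultures, and Nptx2 holds 14.1% and 13.0% against 31.9% to 40.5%.

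NGPF2 was set against vehicle to ask how the same cultures differed after 2 h of exposure. Over the 3 pairs, Gria1 averaged 14706 ± 6335 normalized counts in vehicle cultures and 16995 ± 4583 in NGPF2 cultures (SD, n = 3), and Nptx2 averaged 7577 ± 4734 and 11316 ± 8050. These groups overlapped, as did those of all 7 members, where 10% of all genes kept had no overlap. With the pair as a block, the log2 difference was 0.39 (SE 0.18, 95% interval -0.07 to 0.84) for Nptx2, 0.27 (SE 0.13) for Nptxr, 0.26 (SE 0.11) for Gria1 and 0.21 (SE 0.11) for Gria4. For Gria3, Gria2 and Nptx1 it was 0.06, 0.05 and -0.07. None of the 7 passed the threshold (limma, adjusted p = 0.391 to 0.856), and 0.0% of all genes did, although 2166 of 16653 had an unadjusted p under 0.05. By voom on the recovered counts 0 genes passed and 1315 had an unadjusted p under 0.05.

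Within pair 1, 6 of the 7 genes differed little between NGPF2 and vehicle. The log2 difference was 0.02 for Gria1, 0.08 for Gria3, 0.01 for Gria4, -0.07 for Nptx1, -0.13 for Nptx2 and 0.02 for Nptxr, and 0.30 for Gria2. Pairs 2 and 3 both showed larger differences for Gria1, Gria4, Nptx2 and Nptxr. Gria2 differed most in pair 1, and Gria3 and Nptx1 exceeded their pair 1 difference only in pair 3. Nptx2 went from 9376 to 15902 normalized counts in pair 2 and from 11147 to 16025 in pair 3, so that both NGPF2 cultures were above both vehicle cultures. These are 1.70-fold and 1.44-fold, against 0.915-fold in pair 1. In a fit of replicates 2 and 3 alone (2 cultures per group), Nptx2 rose 1.56-fold (log2 0.64, SE 0.10, 95% interval 0.40 to 0.89, limma, adjusted p = 0.0133).

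Nptxr counted 33571 and 33730 in vehicle 2 and 3, with 47796 and 41347 for NGPF2 2 and 3, without overlap, against 24687 and 25021 in vehicle 1 and NGPF2 1. It rose 1.32-fold in replicates 2 and 3 (log2 0.40, SE 0.09, limma, adjusted p = 0.0356). Gria1, whose counts in these cultures are given above and did not overlap, rose 1.30-fold (log2 0.38, SE 0.08, adjusted p = 0.0292). Gria4 did not overlap either, and its log2 difference of 0.31 (SE 0.09, 95% interval 0.09 to 0.53) missed the threshold (limma, adjusted p = 0.0607). It passed by voom and with a stricter filter (adjusted p = 0.049 in each).

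Gria2, Gria3 and Nptx1 did not pass. The log2 difference in replicates 2 and 3 was -0.07 for Gria2 (95% interval -0.32 to 0.17), 0.05 for Gria3 and -0.07 for Nptx1 (95% interval -0.27 to 0.13). Their NGPF2 and vehicle cultures overlapped, and with quantile and library total scaling Gria3 was at -0.12 and -0.08. In Gria2 pair 2 fell from 16895 to 14472 while pair 3 went from 14271 to 15054.

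In total 3 of 7 members rose and 0 fell in replicates 2 and 3, where 21.1% of all genes kept passed (9.77% higher, 11.3% lower). The 4 members without overlap were all higher, where 64.9% of all genes had no overlap (32.3% higher, 32.7% lower). The median log2 difference of the members was 0.31 against -0.00 over all genes. In size the members were not extreme. The absolute log2 difference of Nptx2 was larger than that of 76.0% of the genes kept, of Nptxr 61.1%, Gria1 58.9% and Gria4 51.2%. For Gria2, Nptx1 and Gria3 it was larger than that of 13.9%, 13.5% and 8.66%. Without vehicle 2 or vehicle 3, 0 genes passed by limma (Nptx2, adjusted p = 0.144 and 0.130). Without NGPF2 2 or NGPF2 3, 2806 and 3206 genes passed, with Nptx2 and Nptxr among them in both cases, and the call of Gria1 was lost without NGPF2 2 (adjusted p = 0.0716). With no filter on low counts none of the 3 calls held (limma, adjusted p = 0.125 for Nptx2, 0.155 for Gria1 and 0.257 for Nptxr), nor with no variance trend (0.0713, 0.115 and 0.122 in the same order). Nptx2 passed with library total and quantile scaling (limma, adjusted p = 0.0242 and 0.0308), while Gria1 (0.0531 and 0.0665) and Nptxr (0.0538 and 0.344) did not. Whether the NGPF2 difference itself differed between replicates 2 and 3 and replicate 1 was tested as an interaction, with the spread of replicate 1 taken to be that of the others. No member passed (2.49% of all genes did), with Nptx2 at a log2 difference of differences of 0.77 (SE 0.17, limma, adjusted p = 0.0934, and 0.0474 by voom).

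**Figure D4:**
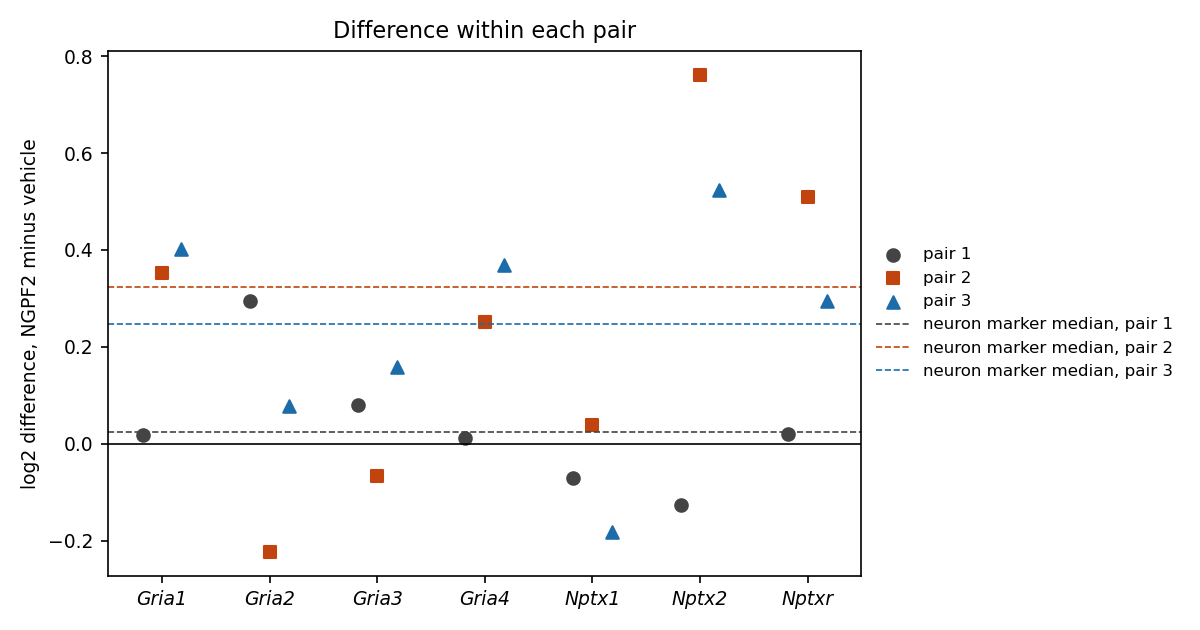
Log2 difference of NGPF2 minus vehicle within pair 1 (circles), pair 2 (squares) and pair 3 (triangles) for each gene; dashed lines give the median of the 10 neuron markers in the same pair. In pair 1 all genes but Gria2 lie within 0.13 of 0, while Nptx2 reaches 0.76 and 0.52 in pairs 2 and 3.

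The neuron markers and the glial markers moved with these differences. The median log2 difference of the 10 neuron markers was 0.02, 0.32 and 0.25 in pairs 1, 2 and 3, with 5 that rose and 0 that fell in replicates 2 and 3. All 10 astrocyte markers fell there (median -3.09 and -2.94 in pairs 2 and 3, 0.02 in pair 1), as did 6 of 7 microglia markers and 3 of 5 oligodendrocyte precursor markers. The part of the glial markers in the members' differences was not tested. When each library was centred on the median log2 level of the neuron markers, the median of all genes shifted to -0.34 in replicates 2 and 3. The median of the markers' own differences there was 0.26, so this scale lowered genes by more than that median. On the centred scale the log2 difference was 0.04 for Gria1, 0.07 for Nptxr and -0.03 for Gria4, none past the threshold (limma, adjusted p = 0.682, 0.467 and 0.836). Nptx2 was 0.31 higher (95% interval 0.08 to 0.54, limma, adjusted p = 0.048). Gria2 and Nptx1 were 0.41 lower each on this scale, at -0.41 (limma, adjusted p = 0.0302 and 0.00851), and Gria3 at -0.29 (adjusted p = 0.0538). In replicates 2 and 3 Nptx2 is thus the member that rose with NGPF2 on both scales. Over the 3 pairs it passed on neither (limma, adjusted p = 0.402, and 0.458 when centred). Centring takes the same amount from every gene, and Nptx2 had the largest difference of the members before it. The intervals of Gria1 (-0.14 to 0.22) and Nptxr (-0.10 to 0.23) on the centred scale held 0.

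**Figure D5:**
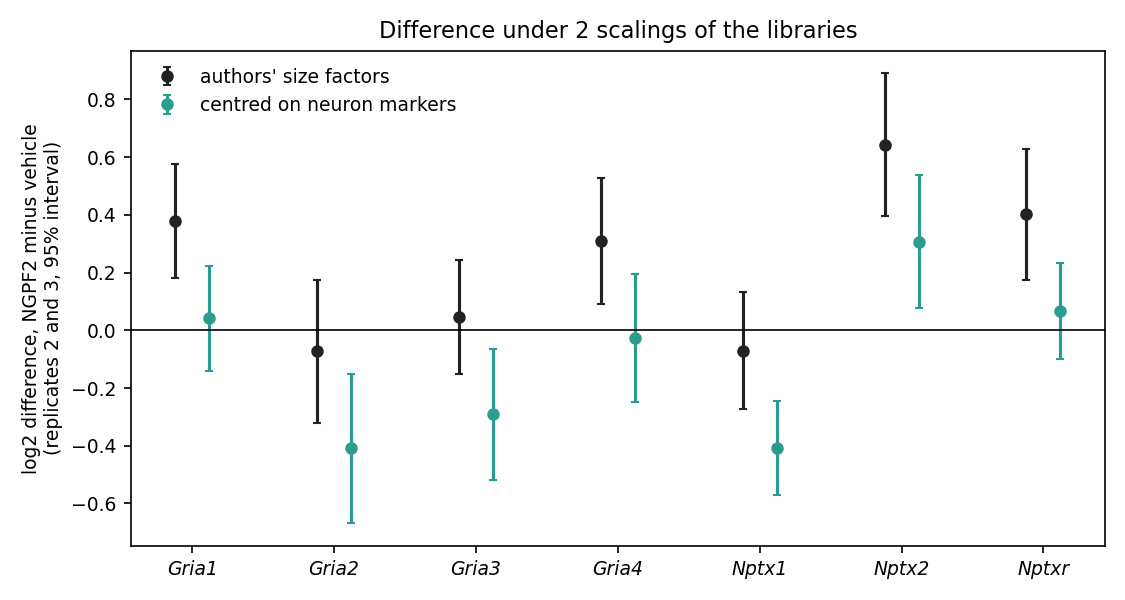
Log2 difference of NGPF2 minus vehicle in replicates 2 and 3 with the authors' size factors (black) and with libraries centred on 10 neuron markers (green); points are limma estimates and bars 95% intervals. Centring lowers every gene, leaving the interval of Nptx2 above 0 and those of Gria2, Gria3 and Nptx1 below 0.

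Shares within the pool do not depend on the scaling of the libraries. The share of Gria1 differed by -1.93, 7.30 and 4.07 percentage points (NGPF2 minus vehicle) in pairs 1, 2 and 3, and that of Gria2 by 2.27, -5.88 and -3.30. In pairs 2 and 3 the pool thus held relatively more Gria1 and less Gria2 with NGPF2, and in pair 1 the reverse. The mean over pairs was 3.15 points for Gria1 and -2.31 for Gria2 (exact permutation within pairs, 2-sided p = 0.50 in both). Gria3 and Gria4 had means of -1.21 and 0.37 (exact p = 0.50). The smallest p that 3 pairs allow is 0.25, so that no share could pass.

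The share of Nptx1 in the pentraxin pool was lower with NGPF2 in all 3 pairs, by -0.36, -3.59 and -3.54 points (mean -2.50, exact permutation p = 0.25). Nptx2 differed by -1.12, 5.09 and 4.99 points (exact p = 0.50) and Nptxr by 1.48, -1.49 and -1.45 (exact p = 0.75). The linear ratio of Nptx2 to Nptx1 was 1.66 and 1.59 in vehicle 1 and NGPF2 1, 2.64 and 3.01 in vehicle 2 and 3, with 4.36 and 4.91 for NGPF2 2 and 3. The NGPF2 cultures of replicates 2 and 3 therefore had the highest ratios of the 6 cultures. With the length of the coding sequence the ratio was 0.81 and 0.78 in vehicle 1 and NGPF2 1, where Nptx1 thus led. The NGPF2 cultures of replicates 2 and 3 were highest on that scale too, at 2.13 and 2.40.

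Across the 6 libraries, the members fell into 2 patterns, given as a description since the libraries share the split between replicate 1 and the others. Pearson's r of log2 values was 0.98 between Gria1 and Gria4. It was 0.99 between Gria3 and Nptx1, 0.98 between Gria3 and Nptx2 and 0.97 between Nptx1 and Nptx2, and -0.91 between Gria1 and Gria3. Gria2 and Nptxr went with Gria3, Nptx1 and Nptx2 less closely, at 0.81 to 0.90 and 0.85 to 0.94, and were at 0.70 with each other. With Gria1 and Gria4, Gria2 was at -0.83 and -0.75, and Nptxr only at -0.61 and -0.48. Among 11216 genes that averaged 100 or more normalized counts, the genes most like Gria1 were Mycn, Pde7a and Nol4l (r = 0.998 each), and those most like Gria4 Samd14, Dhrs13 and Sh3bp5. Nptx2 was most like Stk38l, Pgr15l and Mpp2, Nptx1 like Apmap, Ogfod1 and Kcnk1, and Gria3 like Serinc3, Pex5l and Vxn. Pde4dip and Plekha5 were among the genes most like Nptxr, and both had their highest value in NGPF2 2. Such values are common with 6 libraries: 474 genes reached an r above 0.95 with Gria1, 944 with Nptx2 and 37 with Gria2, whose nearest were Rmnd5a, Tut7 and Lsg1.

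The auxiliary subunits, which bind AMPA receptors and shape their gating and export, were listed as 22 genes, all kept. In replicates 2 and 3, 8 rose and 1 fell with NGPF2, where 9.77% of all genes kept rose and 11.3% fell, and over the 3 pairs 0 of 22 passed. The median log2 difference was 0.02, 0.34 and 0.27 in pairs 1, 2 and 3, close to that of the neuron markers. Gsg1l, a modulator of receptor gating, counted 2896 and 2667 in vehicle 2 and 3, with 6541 and 6163 for NGPF2 2 and 3 (log2 1.19, limma, adjusted p = 0.00208), against 797 and 906 in pair 1. Prrt1 rose by a log2 difference of 0.60 (limma, adjusted p = 0.0109), while Shisa7 and Prrt2 were at 0.46 and 0.89 and did not pass.

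Of 24 listed genes that traffic or anchor the receptor, 7 rose and 2 fell in replicates 2 and 3 (9.77% and 11.3% of all genes), and 0 passed over the 3 pairs. Their median was -0.00, 0.24 and 0.18 in pairs 1 to 3. Myo6, an actin motor of endocytosis, fell by 2.72 on the log2 scale (limma, adjusted p = 0.00076), in the same cultures in which the astrocyte markers were low. Myo5b, a motor of recycling endosomes, rose by 0.98 (adjusted p = 0.00936), and Akap5 at 0.78 did not pass. Arc, the immediate-early gene that promotes AMPA receptor endocytosis, counted 394 and 407 in replicate 1, 4739 and 5213 in vehicle 2 and 3, with 7301 and 7134 for NGPF2 2 and 3. Like Nptx2 it was low in both cultures of replicate 1, with a log2 difference of 3.90 between the sets (limma, adjusted p = 0.00013), and rose with NGPF2 in replicates 2 and 3 by 0.54 (adjusted p = 0.0106).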

How the data were processed

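Poly(A) RNA of 6 cultures was sequenced, per the labels' protocols. Tools listed without role or order in the submitters' processing notes are STAR 2.5, DESeq 1.22.1, FastQC and Cuffnorm, with mm10 as the build. For the annotation, the counting tool and strand, the setting is not given in the sources used here. The table is named FPKM, but the deposited values are log2 values of 1 plus the normalized count: in each library 100% of back-transformed values were whole multiples of 1 step (tolerance 0.01), and the inverse of the step (0.557 to 1.56) equals the median-of-ratios size factor. Symbols matched 31185 identifiers and not 60.

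The members, lists and tests were chosen with earlier results of these data known. Columns of replicates 2 and 3 carry the library names of the titles. In each group the column left over was given to replicate 1 by elimination and initial, although its name has the digit 3. The pairs follow the series' text. Deviations from the group means correlated across genes at r = 0.59, 0.30 and 0.33 between same-numbered libraries, and at 0.34 and 0.32 with replicates 2 and 3 crossed.

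Tests on the deposited log2 values used limma 3.58.1 (R 4.3.3) with moderated variances that follow a trend in the mean, 2-sided, with Benjamini-Hochberg adjustment over 16653 genes and a threshold of 0.05, after a check on simulated data. Rose and fell refer to that threshold. The fits were 3 pairs with the replicate as a block, replicates 2 and 3 without one, the interaction, and replicates 2 and 3 against 1 with the group as a term. They share libraries. Levels per kilobase use the union of exons in GENCODE M21 (or the longest coding transcript). Shares were tested by exact permutation. Besides the 7 members, the rule named the 3 genes of highest Pearson correlation with each, leaving out unnamed and clone-named genes, and up to 4 genes per list by smallest p over the 3 pairs. Some genes chosen by the rule are not reported here. Figures used matplotlib 3.10.9 in Python 3.11.15.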

Additional observations from a re-analysis of the deposited data

Results flagged for a closer look

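For 12 shares and ratios per kilobase, pair 1 and pairs 2 and 3 differed in opposite directions (NGPF2 minus vehicle). The difference between pair 1 and the others was not tested for any of them. They are not separate results, since the shares of a pool depend on each other and several ratios have Gria2 or Nptx2 in common. The share of Gria1 differed by -1.93 percentage points in pair 1 and by 7.30 and 4.07 in pairs 2 and 3, and that of Gria2 by 2.27, -5.88 and -3.30. Gria3 differed by 0.048, -2.26 and -1.42 points and Gria4 by -0.38, 0.84 and 0.65. In pair 1 the Gria3 share differed by -0.049 points without division by length and -0.054 by coding length, so that it was not opposite on those scales. In the pentraxin pool, Nptx2 differed by -1.12, 5.09 and 4.99 points and Nptxr by 1.48, -1.49 and -1.45. The Nptxr share was higher with NGPF2 in every pair without division by length and by coding length. The log2 ratio of summed pentraxin to summed AMPA subunit transcripts differed by -0.065, 0.41 and 0.051. Among log2 ratios of single genes, Gria1 to Gria2 differed by -0.28, 0.58 and 0.32, Gria3 to Gria2 by -0.22, 0.16 and 0.082, and Gria4 to Gria2 by -0.28, 0.47 and 0.29. Nptx2 to Nptx1 differed by -0.057, 0.72 and 0.71, and Nptx2 to Nptxr by -0.15, 0.25 and 0.23.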

How the results depend on the processing

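In replicates 2 and 3, Nptx2 passed the threshold in 9 of 13 alternatives, Nptxr in 6 and Gria1 in 5, and each was higher with NGPF2 in all 13. Gria3, Nptx1 and Nptx2 differed between the sets of cultures in 11 of 11. The lowest count of a member was 1782, and the tests rest on 2 or 3 cultures per group. Over the 3 pairs, the count of genes past the threshold was 1 with a pseudocount of 8, 1 with no replicate block and 0 to 3275 leaving out 1 pair, the last with replicates 2 and 3 in a replicate block. In replicates 2 and 3 it was 3511, against 6217 with neuron marker centring (518 higher, 5699 lower), 1074 with no filter, 1535 with no variance trend and 0 to 3206 leaving out 1 library; library totals gave 982 higher and 2659 lower, against 1627 and 1884. For the interaction it was 415, against 1207 with neuron marker centring, 733 with a filter at 50, 4684 with no filter, 22 with no variance trend, 1368 with voom and 0 to 412 leaving out 1 library. Between the sets of cultures it was 4573, and 608 to 941 leaving out a pair.

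The members whose sign changed had not passed with the settings of the report, though in replicates 2 and 3 Gria4 passed at 0.31 with voom and with a filter at 50, and Gria2 and Nptx1 at -0.41 with neuron marker centring. Over the 3 pairs Gria2 was at -0.072, -0.035 and -0.17 and Gria3 at -0.046, -0.028 and -0.17 with quantile, library total and neuron marker scaling, Gria4 was at -0.014 with the last, and Gria2 ran from -0.073 to 0.19 leaving out a pair. In replicates 2 and 3 Gria3 was at -0.12, -0.082 and -0.29 under these scalings and Gria4 at -0.026 under the last. Leaving out 1 library, Gria2 ran from -0.19 to 0.049, Gria3 from -0.012 to 0.10 and Nptx1 from -0.15 to 0.0088. In the interaction Gria4 was at -0.038 with neuron marker centring and Nptx1 at 0.0033 with voom, and leaving out 1 library Gria3 ran from -0.092 to 0.023 and Nptx1 from -0.081 to 0.079. The Nptxr share differed by 0.55 points without division by length and 0.58 by coding length, and by -1.47 to 0.016 leaving out a pair, and the log2 ratio of pentraxins to subunits by -0.0067 to 0.23. The cause of these changes was not tested.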

Other observations

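The genes that edit or splice AMPA subunit transcripts were listed as 17, all kept, and 6 rose with NGPF2 in replicates 2 and 3 while 0 fell (9.77% and 11.3% of all genes kept). Pair 1 had a median log2 difference of 0.03, pair 2 of 0.14 and pair 3 of 0.33. In the fit of replicates 2 and 3 the median was 0.28, close to the 0.26 of the neuron markers, among which Rbfox3 is also listed. Over the 3 pairs 0 of 17 passed (limma). Rbfox3 and Elavl4, which regulate splicing, rose by log2 differences of 0.58 and 0.59 (limma, adjusted p = 0.00821 and 0.0107), and Cpeb3 at 0.28 did not pass. Adarb1, which edits the Q/R codon of Gria2, was chosen after its values were seen. It counted 4852 and 3878 in vehicle 1 and NGPF2 1, 4381 and 6859 in vehicle 2 and 3, with 11635 and 10036 for NGPF2 2 and 3. The last 2 cultures were the highest of the 6 (log2 0.98, SE 0.22, limma in replicates 2 and 3, adjusted p = 0.0372), and editing itself was not measured.

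The list of pentraxin relatives, partners and processing enzymes had 18 genes kept, without Crp and Apcs. In replicates 2 and 3, 4 rose and 4 fell (9.77% and 11.3% of all genes kept), and the medians in pairs 1, 2 and 3 were -0.03, -0.17 and -0.17. Cbln2, a secreted synapse organizer, was lower with NGPF2 in each pair, from 486 to 293, 663 to 411 and 680 to 314 normalized counts, with a log2 difference of -0.90 in replicates 2 and 3 (limma, adjusted p = 0.0196). Over the 3 pairs 0 of 18 passed. Cbln4 and C1ql3 fell by 1.12 and 0.42 on the log2 scale in replicates 2 and 3, and Nrxn3, a presynaptic receptor of cerebellins, rose by 0.27 (limma, adjusted p = 0.0328, 0.0421 and 0.0398). Of the 11 inhibitory neuron markers, 5 rose and 3 fell with NGPF2 in replicates 2 and 3, with a median log2 difference of 0.41. Pvalb, the marker of the interneurons in which Gria4 is typical, counted 54 and 42 in vehicle 1 and NGPF2 1, 46 and 49 in vehicle 2 and 3, with 420 and 488 for NGPF2 2 and 3, while Sst and Npy fell there (limma, adjusted p = 0.00287 and 0.00565). Unlike Gria4, Pvalb was not lower in all cultures of replicates 2 and 3 than in replicate 1.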
